A study of Mus musculus with 32 samples.

Results

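Frontal cortex from GFAP-IL6 mice was compared with frontal cortex from wild-type (WT) mice by 3'Pool-seq, starting from 10 ng of total RNA per library. The 8 libraries, 4 of each genotype, were taken from 32 in the series by the genotype and RNA amount in their labels. All mice were C57BL/6 and 3 months old. GFAP-IL6 mice were homozygous for a transgene that places the cytokine IL6 under the promoter of Gfap, so that astrocytes are its intended source. The RNA of both genotypes was extracted with Trizol-chloroform and cleaned on RNeasy columns. Neither the sex of the mice, nor the transgenic founder line, nor whether each library came from its own animal was given in the sources used here, so p-values measure only the spread between these libraries. Where the study introduces its cortex RNA it names fewer mice per genotype than the 4 libraries tested here. Some libraries may therefore share an animal, and p-values would then be too small.

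IL6 signals through its receptor Il6ra and the shared subunit Il6st (gp130) to JAK kinases and the transcription factor STAT3. In brain, IL6 is a cytokine of inflammation and injury. Reactive astrocytes are known by their intermediate filament gene Gfap, and activated microglia, the resident phagocytes, by complement, Fc receptor and lysosomal protease genes. In 3'Pool-seq, reverse transcription is primed at the polyA tail and reads come from transcript 3' ends, so a gene's count does not depend on its length. Levels are given as CPM, the count of a gene divided by the library's total count and scaled to the same total in each library.

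Library totals ran from 1064514 to 9840302 counts, and 12478 to 13510 genes exceeded 1 CPM. A count of 3, taken as the floor, was worth 0.305 to 2.82 CPM, so low genes were measured least precisely in the replicate 2 libraries, the shallowest of each genotype. Mitochondrially encoded genes took 11.6 to 18.8% of counts. Total counts (exact permutation p = 0.857, two-sided, 4 against 4), genes detected (p = 0.8, exact permutation) and mitochondrial share (p = 0.914, exact permutation) did not differ between genotypes beyond the spread of the libraries by this test. The test took no account of the replicate numbers, which went with mitochondrial share in both genotypes. Excitatory neuron markers summed to 2263 to 2677 CPM over the 8 libraries. WT replicate 3 stood apart by the choroid plexus marker Ttr, at 3003 CPM against 46.8 to 91.1 in the other WT libraries. GFAP-IL6 replicate 4 received the lowest sample weight when limma estimated one for each library (0.355, against 0.795 to 1.76 in the others).

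The Il6 gene itself was counted at 10.1, 1.88, 5.35 and 2.03 CPM in GFAP-IL6 replicates 1 to 4 and at 0.411, 0, 0.758 and 0 CPM in the WT replicates. Every GFAP-IL6 library was therefore above every WT library, with means of 4.84 ± 3.85 and 0.292 ± 0.366 CPM (SD, n = 4 each, exact permutation p = 0.0286, two-sided, the smallest that 4 against 4 allows). The counts behind these levels were few, 90 in GFAP-IL6 and 5 in WT, giving a pooled ratio of 16.9 with a 95% counting interval of 7.0 to 53.2 (exact binomial; counting error only, since reads carried no molecular identifiers). The 3' end of the transgene was not described in the sources used here, so these 3' counts may miss it, and its transcripts cannot be told apart from those of the endogenous gene. Il6 was too low to enter the genome-wide test. Gfap, whose promoter drives the transgene and whose product is the filament protein of reactive astrocytes, stood at 41.6, 51.7, 68.2 and 25.5 CPM in GFAP-IL6 and at 9.87, 7.26, 8.08 and 6.77 CPM in WT. The genotypes did not overlap, and Gfap rose by 2.49 ± 0.28 on the log2 scale (SE, adjusted p = 4.0e-07).

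Of 12043 genes tested across the genome with edgeR, 30 were differentially expressed and higher in GFAP-IL6 (0.249%) and 2 were differentially expressed and lower (0.0166%), where a call required both an adjusted p below 0.05 and a log2 fold change beyond 1 in size. By adjusted p alone, 36 genes were higher (0.299%) and 4 lower (0.0332%). The 30 higher genes rose by 1.02 to 5.33 on the log2 scale, with a median of 1.70. In 34 of the 36, the 4 GFAP-IL6 libraries lay above the 4 WT libraries in CPM, a separation seen in 2.77% of all tested genes. The exceptions were Fcgr3 and Fxyd5, where 3 of 4 GFAP-IL6 libraries did. In bulk tissue, more cells of a type and more RNA per cell cannot be told apart in any of these values.

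**Figure D1:**
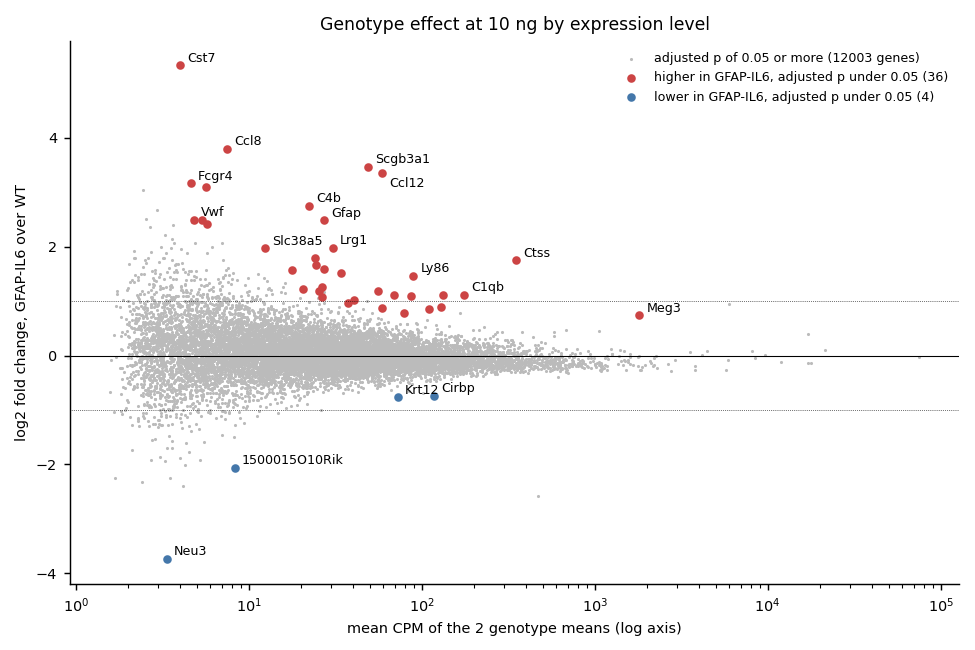
Log2 fold change of GFAP-IL6 over WT at 10 ng against the mean of both genotype means in CPM (log axis), 1 point per tested gene, with dotted lines at a log2 fold change of 1 and -1. The 36 genes that were higher (red) spread from low to high expression and the 4 that were lower (blue) are few beside them.

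Ccl12 and Ccl8, CC chemokines that attract leukocytes, were the 2 of 15 tested members of the chemokine list (30 listed) that passed, both higher. In replicate order, Ccl12 measured 142, 69.5, 135 and 81.9 CPM in the transgenic cortex and 12.5, 4.62, 12.9 and 9.38 CPM in WT, a log2 fold change of 3.35 ± 0.24 (SE, adjusted p = 9.4e-12). Ccl8 stood at 10.3, 13.2, 25.4 and 7.52 CPM against 0.206, 0.66, 0.505 and 1.9 CPM, a log2 fold change of 3.80 ± 0.56 (SE, adjusted p = 7.9e-05). In both genes the lowest GFAP-IL6 library was well clear of the highest WT library. They are neighbours on chromosome 11 of mm10 (Ccl12 at chr11:82101845-82103400 and Ccl8 at chr11:82115185-82116799) and belong to 1 family of related genes, so reads shared between copies could blur their separate levels. The median log2 fold change over the 15 tested members was -0.10, beside 0.00 over all tested genes, so the rise did not extend across the list at 10 ng. At 50 ng the list's median was 0.18 over 15 tested members.

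The secretoglobin Scgb3a1, a small secreted protein best known from airway epithelium, was on no list and was among the most changed genes. Its level was 63.7, 103, 118 and 70.3 CPM in GFAP-IL6 and 7.20, 11.2, 12.1 and 3.56 CPM in WT, a log2 fold change of 3.47 ± 0.28 (SE, adjusted p = 8.2e-11). The lowest GFAP-IL6 library was far above the highest WT library.

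Of 21 complement genes listed, 14 were tested and 3 rose: C4b, C1qb and C1qc. C4b, a classical pathway component cleaved after C1 is engaged, stood at 19.7, 43.2, 47.2 and 45.8 CPM in GFAP-IL6 against 6.58, 5.94, 5.30 and 4.87 CPM in WT (log2 fold change 2.76 ± 0.30 SE, adjusted p = 1.9e-07). GFAP-IL6 replicate 1 was the low library for this gene, yet still above all of WT. C1qb and C1qc, chains of the C1q recognition molecule made by microglia, lie next to each other on chromosome 4 and rose by 1.11 ± 0.16 (SE, adjusted p = 7.0e-05) and 1.12 ± 0.15 (SE, adjusted p = 2.7e-05). C1qb was at 184 to 341 CPM in GFAP-IL6 and 84.9 to 127 CPM in WT, and C1qc at 149 to 224 against 71.8 to 100 CPM. The remaining chain gene, C1qa, named after its value was seen, had a log2 fold change of 1.22 at an adjusted p of 0.466 and means of only 9.54 and 4.10 CPM. C3 had 0 counts in all 8 libraries. The list's median log2 fold change was 1.08, and C4b has a close copy in the genome that could share its reads.

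The list of Fc receptors, integrins and phagocyte signalling held 31 genes, of which 25 were tested and 7 rose, with a median log2 fold change of 0.97. No member passed in the lower direction, and 23 of the 25 had a positive log2 fold change. The 4 Fcgr genes on the list, receptors for IgG, all passed. Fcgr2b, the inhibitory receptor, was at 32, 29.1, 56.7 and 30 CPM in GFAP-IL6 and 10.3, 16.5, 10.6 and 7.37 CPM in WT (log2 fold change 1.78 ± 0.28 SE, adjusted p = 0.000229). The activating receptors Fcgr4 and Fcgr1 were near the floor in WT, with 20 and 32 counts over the 4 libraries. Fcgr4 was at 4.70 to 10.8 CPM in GFAP-IL6 (log2 fold change 3.16 ± 0.64 SE, adjusted p = 0.009) and Fcgr1 at 5.89 to 14.7 CPM (2.49 ± 0.57 SE, adjusted p = 0.0306). Fcgr3, also activating, was at 71.6, 78.0, 115 and 47.7 CPM against 33.5, 23.8, 49.8 and 26.6 CPM, so GFAP-IL6 replicate 4 was just within the WT range (log2 fold change 1.18 ± 0.22 SE, adjusted p = 0.00358). Their shared signalling chain Fcer1g rose by less, 0.89 ± 0.16 (SE, adjusted p = 0.00165), as did the adaptor Tyrobp (DAP12), by 0.85 ± 0.16 (SE, adjusted p = 0.0042), and the Tyrobp-coupled lipid receptor Trem2, by 1.02 ± 0.20 (SE, adjusted p = 0.00773). Fcgr2b, Fcgr4, Fcgr3 and Fcer1g lie together on chromosome 1, between chr1:170958617 and chr1:171234365. Without WT replicate 1, Tyrobp and Trem2 no longer passed (highest adjusted p 0.0517), Fcgr4 failed without GFAP-IL6 replicate 1 or 4 (highest adjusted p 0.102), and Fcgr1 kept its call only without WT replicate 1 or GFAP-IL6 replicate 1, failing in the other 6 of 8 fits that left out 1 library (highest adjusted p 0.178).

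Of 30 cathepsin and lysosome genes, 29 were tested and 4 rose, with a list median of 0.31. Ctss, the cathepsin that trims the invariant chain of MHC class II in phagocytes, was at 604, 532, 655 and 394 CPM in GFAP-IL6 and 170, 137, 172 and 156 CPM in WT (log2 fold change 1.75 ± 0.15 SE, adjusted p = 1.8e-10). Ctsc, the protease that activates serine proteases of granules, rose by 1.60 ± 0.26 (SE, adjusted p = 0.000355), and Ctsh, an aminopeptidase, by 1.18 ± 0.26 (SE, adjusted p = 0.0238). Lyz2, the lysozyme of macrophages and microglia, was at 46.8, 59.2, 64.3 and 32.4 CPM against 15.2, 19.2, 17.4 and 16.9 CPM (1.52 ± 0.23 SE, adjusted p = 0.000176). The ubiquitous cathepsins Ctsb and Ctsd, named after their values were seen, had log2 fold changes of 0.04 and 0.35 at adjusted p of 0.958 and 0.577. The call of Ctsh was lost without WT replicate 1, 3 or 4 or GFAP-IL6 replicate 1 or 2 (highest adjusted p 0.169), and those of Ctss, Ctsc and Lyz2 in none.

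RefSeq windows of 250 bases before and 50 after the transcript start (build GRCm38.p6, the build of the counts) were found for 26 of the 32 differentially expressed genes. Each was searched on both strands for 4 sets of letters: TTCNNNGAA, bound by STAT factors, GAAANNGAA, an interferon response core, GAGGAAGT, bound by the myeloid factor PU.1, and TGANTCA, bound by AP-1. PU.1 letters were in 6 of the 26 (23.1%, beside 3.32% of 9542 tested genes with a window and 3.69% of all 27025), STAT letters in 5 (19.2%, beside 8.04% and 9.55%), interferon letters in 4 (15.4%, beside 8.18% and 9.76%) and AP-1 letters in 3 (11.5%, beside 5.87% and 8.97%). Gfap was among the 5 with STAT letters, with Scgb3a1, Ctsc, Fcgr1 and Ifitm3. In Gfap and Ifitm3 the STAT letters did not lie wholly within the 250 bases before the start. Each gene was counted once over its windows. The 3 genes with 2 kinds of letters among the 250 bases before the start, picked after the search, are shown to place the letters, 5' to 3' in the direction of the gene, with the letters in capitals. Scgb3a1 (chr11:49663345-49663594, plus strand) has STAT letters beginning 194 bases and PU.1 letters 89 bases before the start, Ctsc (chr7:88277835-88278084, plus strand) has STAT letters at 236 and PU.1 letters at 151 bases, and Fcgr4 (chr1:171018676-171018925, plus strand) has interferon letters at 73 and PU.1 letters at 24 bases.
Scgb3a1: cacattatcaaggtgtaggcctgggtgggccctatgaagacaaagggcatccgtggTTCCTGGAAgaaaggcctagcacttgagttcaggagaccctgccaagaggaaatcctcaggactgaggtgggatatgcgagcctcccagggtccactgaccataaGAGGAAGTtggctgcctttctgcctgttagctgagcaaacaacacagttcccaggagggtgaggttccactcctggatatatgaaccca
Ctsc: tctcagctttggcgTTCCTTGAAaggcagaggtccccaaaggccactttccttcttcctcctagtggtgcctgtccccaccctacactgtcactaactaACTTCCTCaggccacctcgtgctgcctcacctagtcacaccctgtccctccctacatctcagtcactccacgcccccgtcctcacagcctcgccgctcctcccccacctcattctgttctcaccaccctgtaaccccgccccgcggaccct
Fcgr4: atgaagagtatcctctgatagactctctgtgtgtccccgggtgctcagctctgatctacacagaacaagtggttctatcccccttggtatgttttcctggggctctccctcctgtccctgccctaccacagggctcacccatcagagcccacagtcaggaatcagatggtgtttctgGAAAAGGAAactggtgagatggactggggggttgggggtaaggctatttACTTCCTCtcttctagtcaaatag
A run of matching letters is a description of the sequence, and binding was not measured. The same letters occur in windows of many other genes, and 14 of the 26 genes had none of the 4.

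**Figure D2:**
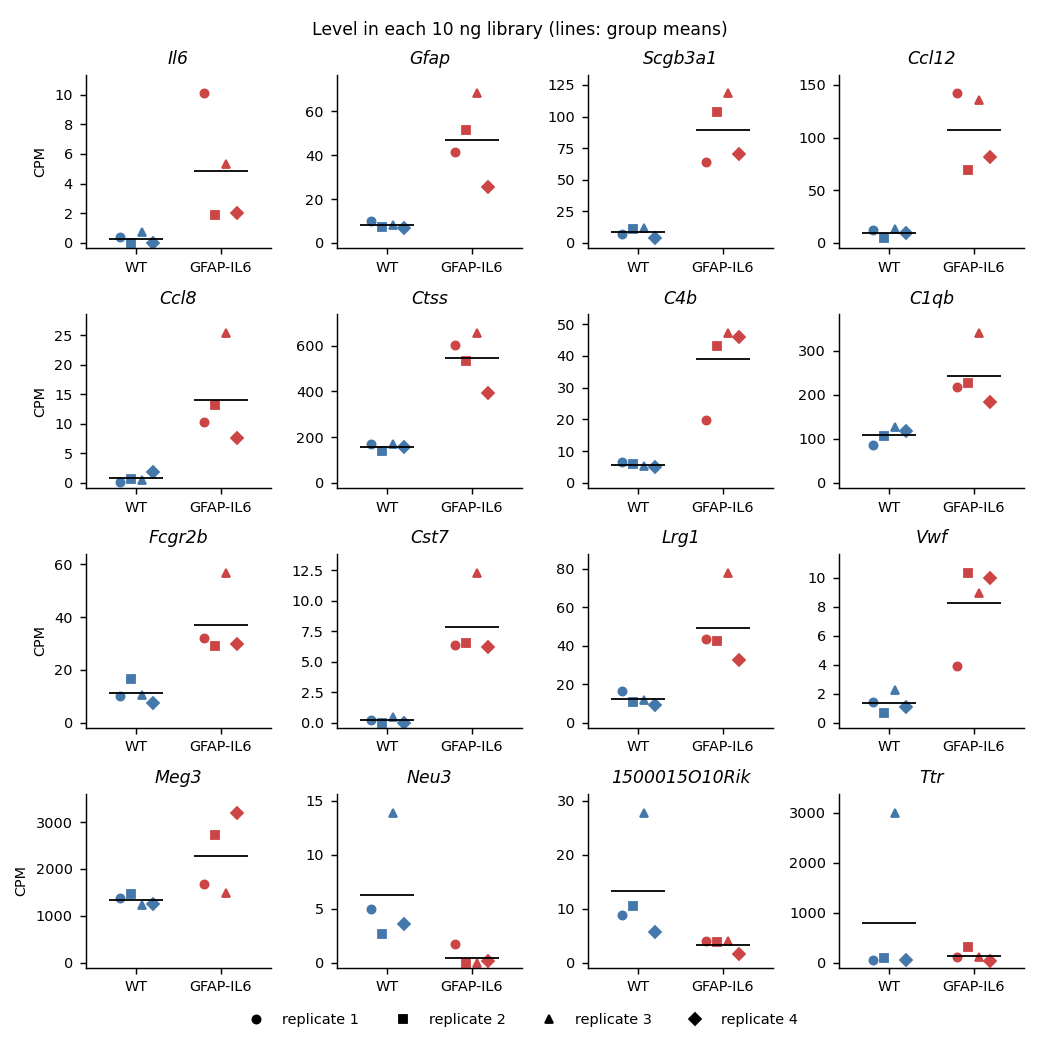
Level in CPM of 16 genes in each of the 8 libraries at 10 ng, 1 panel per gene with its own axis from 0, a marker shape for each replicate number and a line at each group mean. The GFAP-IL6 libraries lie above all WT libraries for Il6 and the genes from Gfap to Meg3, and below all of them for Neu3 and 1500015O10Rik. WT replicate 3 is the highest WT library for Neu3, 1500015O10Rik and Ttr, and sets the WT mean of Ttr.

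Of 24 pan-myeloid and activated microglia markers, 22 were tested and 8 rose, none passed in the lower direction, and the median log2 fold change was 0.88. Their summed level was 1436, 1247, 1686 and 1034 CPM in GFAP-IL6 and 586, 548, 661 and 558 CPM in WT, 2.30 times higher by the means. Cst7, an inhibitor of cysteine proteases that marks activated microglia, was nearly absent from WT with 3 counts in all, and stood at 6.40, 6.58, 12.3 and 6.20 CPM in GFAP-IL6. The pooled ratio was 48.7 with a 95% counting interval of 16.4 to 239 (exact binomial), and the fitted log2 fold change 5.33 ± 0.81 (SE, adjusted p = 0.000123). No WT library exceeded the 3-count floor, and the size of this ratio is poorly determined. At 50 ng, Cst7 was at 1.66, 0, 1.67 and 0.796 CPM in WT and 8.98, 10.3, 6.69 and 2.15 CPM in GFAP-IL6, a smaller gap between the means (1.03 and 7.02 CPM). The 10 ng log2 fold change minus that at 50 ng was 2.81 ± 1.05 (SE, unadjusted p = 0.0117, adjusted p = 1.0). Cd52, a surface glycoprotein of leukocytes and microglia, rose by 1.58 ± 0.28 (SE, adjusted p = 0.00165), and Aif1 (IBA1), the standard microglial stain, by 0.87 ± 0.19 (SE, adjusted p = 0.0238). Ctss, Lyz2, Fcer1g, Tyrobp and Trem2 complete the 8. Without WT replicate 1, 5 of these markers passed. The call of Aif1 was lost without WT replicate 1, 2 or 4 or GFAP-IL6 replicate 1 or 3 (highest adjusted p 0.211). Clec7a, another marker of activated microglia named after its value was seen, had 0 counts in all 8 libraries.

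Of the 12 homeostatic microglia markers, all tested, none passed, although 11 had a positive log2 fold change, 5 were higher at an unadjusted p under 0.05 by edgeR and the median was 0.41. Over all 12043 tested genes, 569 were higher at that unadjusted p. Their summed level was 484 to 725 CPM in GFAP-IL6 and 385 to 458 CPM in WT, with no overlap. Csf1r, the receptor for the microglial growth factors, had the smallest p, with means of 55.1 ± 3.3 and 33.2 ± 2.3 CPM (SD, n = 4 each, log2 fold change 0.70, adjusted p = 0.156). P2ry12 and Siglech, named after their values were seen, had log2 fold changes of -0.08 and 0.11 (adjusted p = 0.945 and 0.931). The difference between the myeloid lists was not tested.

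Markers of leukocytes that could enter from blood or brain borders were sparse in both genotypes. Monocyte and neutrophil markers summed to 2.03 to 13.2 CPM in GFAP-IL6 and 3.03 to 10.3 CPM in WT, with Ly6g and Cxcr2 at 0 in all 8 libraries. Border-associated macrophage markers summed to 11.9 to 25.8 and 9.85 to 24.4 CPM. T and NK cell markers summed to 65.8 to 90.4 and 64.2 to 102 CPM, nearly all of it Trbc2, while Cd3e and Klrb1c were at 0. B and plasma cell markers summed to 37.6 to 95.7 and 39.6 to 79.3 CPM, mostly Ighm, with Cd79a at 0. In each of these lists 1 gene was tested (S100a8, Pf4, Trbc2 and Ighm) and none passed, with adjusted p from 0.756 to 0.972.

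**Figure D3:**
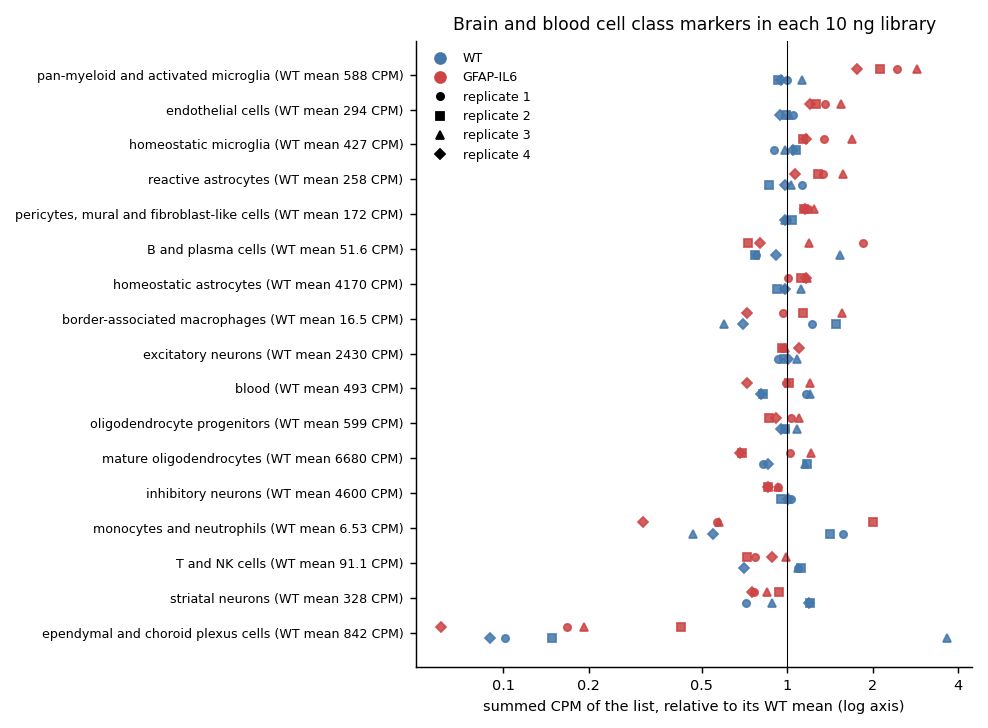
Summed CPM of each cell class list in each 10 ng library, relative to the WT mean of that list (log axis), with WT in blue, GFAP-IL6 in red and a shape for each replicate number. Pan-myeloid markers are at 1034 to 1686 CPM in GFAP-IL6 against 548 to 661 in WT, and WT replicate 3 stands alone among ependymal and choroid plexus markers at 3083 CPM.

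Of 28 reactive astrocyte genes, 15 were tested and Gfap alone passed, although the list's median was 0.62 on the log2 scale. Cp (ceruloplasmin), a ferroxidase of astrocytes, had means of 14 ± 8.44 and 4.99 ± 0.997 CPM (SD, n = 4 each, log2 fold change 1.31, adjusted p = 0.336), with all 4 GFAP-IL6 libraries above WT. Sphk1, a kinase that makes sphingosine 1-phosphate, had a negative value of -1.69 (adjusted p = 0.497), with means of 1.77 ± 1.08 and 4.98 ± 1.24 CPM (SD, n = 4 each) and all 4 GFAP-IL6 libraries below WT. Homeostatic astrocyte genes gave 0 of 16, with a median of 0.11. The glutamate transporter Slc1a2 was at 0.45 (adjusted p = 0.441) and the sodium pump subunit Atp1b2 at 0.69 (adjusted p = 0.182). The summed level of the homeostatic list was 4184 to 4912 CPM in GFAP-IL6 and 3836 to 4658 CPM in WT, so the ranges overlapped.

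Of 26 genes of IL6 family signalling, 17 were tested and only Lrg1 passed. Lrg1, a secreted leucine-rich glycoprotein of the acute phase made by vessels, was at 43.6, 42.3, 77.7 and 32.6 CPM in GFAP-IL6 and 16.7, 10.6, 11.9 and 9.27 CPM in WT (log2 fold change 1.98 ± 0.26 SE, adjusted p = 1.3e-05). The signal transducer Stat3 had a log2 fold change of 0.76 (adjusted p = 0.467) and the receptor subunit Il6st of 0.56 (adjusted p = 0.656). The feedback inhibitor Socs3, named after its values were seen, was too low to test at means of 1.60 and 0.642 CPM. The list's median was 0.36, and 15 of its 17 tested members had a positive log2 fold change.

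Of 22 genes of vascular activation and matrix, 13 were tested and Lrg1 and Vwf rose. Vwf, the clotting glycoprotein stored in endothelial cells, was at 3.94, 10.3, 8.92 and 9.96 CPM in GFAP-IL6 and 1.44, 0.66, 2.27 and 1.07 CPM in WT (log2 fold change 2.49 ± 0.57 SE, adjusted p = 0.0306). That call rested on 170 and 26 counts and was kept only without GFAP-IL6 replicate 1, failing in the other 7 of 8 fits that left out 1 library (highest adjusted p 0.229). None of 11 tested endothelial markers passed, with a median of 0.60. Their summed level was nevertheless 355 to 457 CPM in GFAP-IL6 and 278 to 308 CPM in WT, with no overlap. The VEGF receptor Flt1 was closest (1.18, adjusted p = 0.0868), followed by the surface antigen Ly6c1 (0.58, adjusted p = 0.195). Mural cell markers gave 0 of 12, with Rgs5, a regulator of G protein signalling in pericytes, at 0.78 (adjusted p = 0.105). The mural list's median was 0.07 at 10 ng and 0.50 over 12 tested members at 50 ng. Its summed level at 10 ng was 197 to 213 CPM in GFAP-IL6 and 168 to 179 CPM in WT, with no overlap. Slc38a5, a glutamine transporter found at brain vessels, was on no list and rose by 1.97 ± 0.36 (SE, adjusted p = 0.00194), from 3.91, 3.96, 5.81 and 6.06 CPM to 23.1, 9.39, 32.7 and 14.2 CPM.

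Interferon, Toll-like receptor, MHC and acute phase lists each held 1 or 2 genes that passed, or none. Ifitm3, which restricts virus entry, was the only one of 21 tested interferon-stimulated genes to pass, at 82.3 to 143 CPM in GFAP-IL6 and 44.4 to 68.0 CPM in WT (log2 fold change 1.08 ± 0.19 SE, adjusted p = 0.00102). The list's median was 0.14, and at 50 ng it was 0.40 over 19 tested members. Ly86 (MD-1), a partner of the Toll-like receptor homologue RP105, was the only one of 12 tested Toll-like receptor and NF-kB genes to pass, at 164, 117, 140 and 107 CPM against 50.2, 46.2, 43.2 and 48.0 CPM (1.46 ± 0.17 SE, adjusted p = 7.3e-07). The median of the 12 was 0.83 and 11 were positive, while at 50 ng the median was 0.10 over 11 tested members. The summed level of this list at 10 ng was 291 to 357 CPM in GFAP-IL6 and 205 to 230 CPM in WT, with no overlap. On the MHC class II list the 2 of 7 tested members that rose were Ctss and Ctsh, which process antigen and invariant chain. The class II molecules themselves did not pass. The median of the 7 was 1.07, 6 were positive, and the list's summed level was 460 to 766 CPM in GFAP-IL6 and 209 to 235 CPM in WT, most of it Ctss. On the MHC class I list 0 of 11 passed, with H2-K1 at 0.62 (adjusted p = 0.286) and H2-D1 at 0.57 (adjusted p = 0.414). Lrg1 was the only one of 12 tested acute phase, metal and iron genes to pass, and the iron exporter Slc40a1 had a log2 fold change of -1.60 (adjusted p = 0.467).

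Neuronal and oligodendrocyte lists gave no gene that passed: 0 of 15 excitatory, 0 of 16 inhibitory and 0 of 6 striatal neuron markers, 0 of 29 synaptic genes, 0 of 12 mature oligodendrocyte and 0 of 12 progenitor markers. Their median log2 fold changes ran from -0.38 to 0.05. The lowest p on these lists belonged to Ppp1r1b (DARPP-32), a phosphatase inhibitor of neurons that receive dopamine, at 123 ± 25.1 CPM in WT and 78.7 ± 5.93 CPM in GFAP-IL6 (SD, n = 4 each, log2 fold change -0.68, adjusted p = 0.0706). Summed inhibitory neuron markers were 3929 to 4279 CPM in GFAP-IL6 and 4365 to 4763 CPM in WT, with no overlap. Of these 16 markers, 4 were lower and 1 higher at an unadjusted p under 0.05 by edgeR. Over all 12043 tested genes, 332 were lower and 569 higher by that rule. Summed excitatory markers overlapped, at 2328 to 2677 CPM in GFAP-IL6 and 2263 to 2641 CPM in WT. The immediate early genes (0 of 16, led by Dusp1 at 0.72, adjusted p = 0.419), glucocorticoid and stress genes (0 of 19, led by Fkbp5 at 0.84, adjusted p = 0.56), lipid genes (0 of 21, led by Apoc1 at 2.68, adjusted p = 0.0934), cell cycle genes (0 of 8), blood genes (0 of 5), ependymal and choroid plexus genes (0 of 6) and mitochondrially encoded genes (0 of 10) also gave none.

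**Figure D4:**
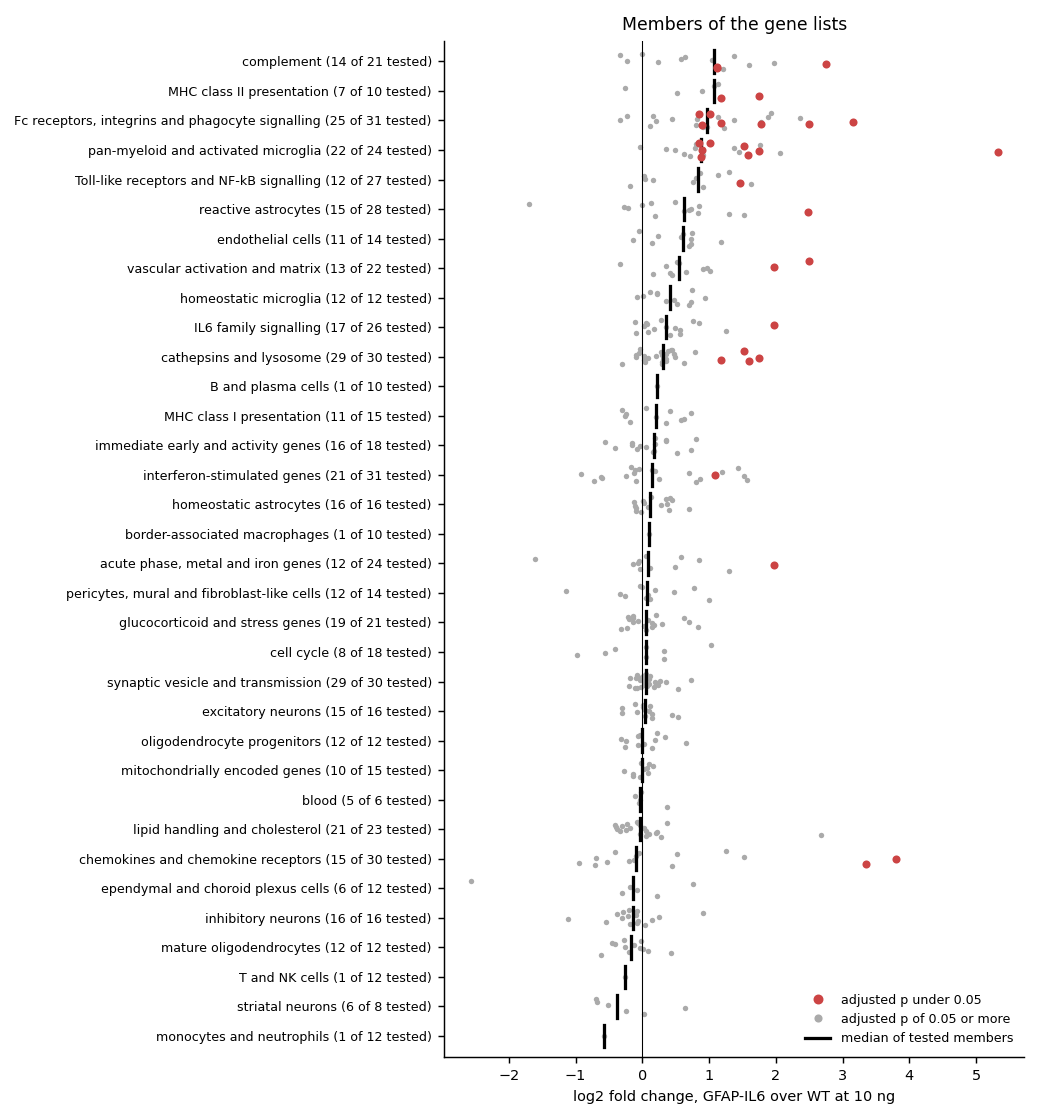
Log2 fold change of every tested member of the 34 gene lists at 10 ng, 1 row per list ordered by its median (black bar), with members that passed in red. The passing members lie on the immune, lysosomal, reactive astrocyte and vascular lists, and no member of any list passed in the lower direction.

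Other genes that rose were on no list. Pycard (ASC), the adaptor of inflammasomes, was at 30, 25.4, 58.1 and 36.3 CPM in GFAP-IL6 and 13.6, 3.96, 17.9 and 9.74 CPM in WT (log2 fold change 1.66 ± 0.29 SE, adjusted p = 0.00116). The membrane protein Tmem176a rose by 1.12 ± 0.18 (SE, adjusted p = 0.000234). Tspo, the mitochondrial membrane protein used as a tracer target for neuroinflammation, rose by 0.97 ± 0.22 (SE, adjusted p = 0.0274), and Ly6a (Sca-1), an antigen of endothelial and stem cells, by 0.78 ± 0.17 (SE, adjusted p = 0.0264). Fxyd5, a sodium pump regulator, rose by 1.26 ± 0.27 (SE, adjusted p = 0.0198) and the membrane protein Tmem252 by 2.42 ± 0.52 (SE, adjusted p = 0.0198). Of these, Pycard and Tmem176a kept their call in each of the 8 fits that left out 1 library, while Ly6a lost it in 4 of them, Fxyd5 and Tmem252 in 5 and Tspo in 7 (highest adjusted p 0.111 to 0.215). GFAP-IL6 replicate 3 was among the libraries concerned for Fxyd5, Tmem252 and Tspo, and replicate 1 for Ly6a, with WT libraries concerned in each of the 4.

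Fam187a was at 8.61, 8.45, 13.3 and 10.7 CPM in GFAP-IL6 and 1.23, 0, 2.02 and 0.95 CPM in WT (log2 fold change 3.10 ± 0.54 SE, adjusted p = 0.00116). It and Gfap are transcribed towards each other with 604 bases between their ends, and it shares 48 bases with Ccdc103 on its own strand. All 1563 bases of Fam187a also lie within Gm26668 on that strand, which overlaps Gfap too. Whether reads were counted by strand was not given, so reads of such neighbours cannot be kept apart with certainty. Gfap itself, Fcgr2b, Ctsc, Pycard, Cd52, Tmem176a, Clmn, Meg3, Tspo, Krt12 and 1500015O10Rik also overlap a gene on the opposite strand in GENCODE, and their levels carry the same doubt.

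Meg3 and Clmn were higher through other libraries than the immune genes. The imprinted long noncoding RNA Meg3 was at 1688, 2730, 1490 and 3202 CPM in GFAP-IL6 and 1386, 1474, 1237 and 1259 CPM in WT (log2 fold change 0.74 ± 0.17 SE, adjusted p = 0.0274), so replicates 2 and 4 were far above WT and replicates 1 and 3 only just. Clmn, a calponin-like membrane protein of neurons, was at 24.1, 34.8, 20.4 and 36.8 CPM against 13.8, 13.2, 10.4 and 11.3 CPM (1.23 ± 0.28 SE, adjusted p = 0.0289), with the same 2 libraries highest. Both calls were lost without GFAP-IL6 replicate 2, without replicate 4 and without any one WT library (highest adjusted p 0.276 for Meg3 and 0.251 for Clmn).

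Across the 36 higher genes, GFAP-IL6 replicate 3 was the highest of its group for 27 and replicate 4 the lowest for 20. How often these libraries were highest or lowest over all tested genes was not counted. At 50 ng, the same-numbered libraries held the same places, with replicate 3 highest for 25 and replicate 4 lowest for 29 of the 36. Il6 itself did not follow this order at 10 ng, where replicate 1 was highest and replicate 2 lowest (1.88 CPM), with replicate 4 at 2.03 CPM. At 50 ng, Il6 was lowest in replicate 4 (0.717 CPM) and highest in replicate 2 (8.40 CPM). Whether same-numbered libraries came from the same RNA was not stated. The part of library quality or dissection in this order was not tested.

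Neu3, a sialidase of the plasma membrane that acts on gangliosides, was at 1.72, 0, 0 and 0.102 CPM in GFAP-IL6 and 4.94, 2.64, 13.9 and 3.56 CPM in WT (log2 fold change -3.73 ± 0.84 SE, adjusted p = 0.0282). 1500015O10Rik (Ecrg4), the precursor of a secreted peptide known from choroid plexus, was at 3.94, 3.76, 3.97 and 1.63 CPM against 8.84, 10.6, 27.8 and 5.70 CPM (-2.07 ± 0.48 SE, adjusted p = 0.0375). In both, all 4 GFAP-IL6 libraries lay below WT, as in 1.34% of all tested genes, and WT replicate 3 was the highest WT library. That library is the one with high Ttr, and summed ependymal and choroid plexus markers were 3083 CPM in it against 75.4 to 125 CPM in the other WT libraries and 50.9 to 355 CPM in GFAP-IL6. At 50 ng, where Ttr in WT replicate 3 was again high (3355 CPM), the 2 genes parted. WT replicate 3 was then the lowest WT library for Neu3, at 1.11 CPM (others 2.26 to 4.51). For 1500015O10Rik, WT replicate 3 was again the highest, at 26.4 CPM. The part of choroid plexus tissue in the falls at 10 ng was not tested. Without WT replicate 3, 0 genes were differentially expressed and lower and 23 higher (edgeR, 535 higher and 356 lower at an unadjusted p under 0.05), and the adjusted p was 0.399 for Neu3 and 0.61 for 1500015O10Rik. Neu3 also lost its call without WT replicate 1 or GFAP-IL6 replicate 2, 3 or 4, and 1500015O10Rik without WT replicate 2 or GFAP-IL6 replicate 1, 2 or 4. Over the fits that left out 1 library, the log2 fold change stayed at -6.23 to -3.04 for Neu3 and -2.33 to -1.42 for 1500015O10Rik. The count of lower genes was also 0 without GFAP-IL6 replicate 2 or 4, 1 without WT replicate 2 and 4 without WT replicate 4.

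Krt12 and Cirbp fell by less than the fold limit. Krt12, a keratin best known from cornea, was at 62.5, 51.7, 53.5 and 50.1 CPM in GFAP-IL6 and 109, 70, 87.2 and 95.5 CPM in WT (log2 fold change -0.77 ± 0.17 SE, adjusted p = 0.0306). Cirbp, a cold-inducible RNA-binding protein, was at 86.9, 116, 94.0 and 64.3 CPM against 142, 159, 170 and 111 CPM (-0.74 ± 0.17 SE, adjusted p = 0.0366), and GFAP-IL6 replicate 2 lay within the WT range. Krt12 lost its call in 6 and Cirbp in 5 of 8 fits that left out 1 library (highest adjusted p 0.246 and 0.179), that without WT replicate 3 among them. Of the genes with negative values that did not pass, the smallest p belonged to the endosomal adaptor Tom1l1, at 17.1 ± 4.84 CPM in GFAP-IL6 and 34.9 ± 2.99 CPM in WT (SD, n = 4 each, log2 fold change -0.99, adjusted p = 0.0583). Next came Ppp1r1b, the clock gene Dbp (-0.65, adjusted p = 0.0898) and the stress kinase Mapk12 (-1.91, adjusted p = 0.11). The log2 fold change of Ttr, which carries thyroid hormone, was -2.57 (adjusted p = 0.17) and turned to 1.05 (adjusted p = 0.495) without WT replicate 3.

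The libraries made from 50 ng of RNA gave 33 differentially expressed genes of 11773 tested, all higher (0.28%). Of the 32 at 10 ng, 29 were tested at 50 ng and 19 were differentially expressed there too, 59.4% of the 10 ng set and 57.6% of the 50 ng set. Among them were Scgb3a1 (3.47 at 10 ng and 3.52 at 50 ng), Ccl12 (3.35 and 3.29), C4b (2.76 and 2.66), Gfap (2.49 and 2.20), Lrg1 (1.98 and 2.13) and Pycard (1.66 and 1.82), all as log2 fold changes. Ccl8 (3.80 and 2.81) and Fam187a (3.10 and 4.13) lay further apart. Those tested at 50 ng that did not pass there included Ctsc, Vwf, Fcgr3, Trem2, Cd52, Fcgr1, Fxyd5 and Clmn. Their log2 fold changes at 50 ng were positive, with adjusted p from 0.0874 to 0.835 by edgeR. When the 2 inputs were fitted together, 0 of 12599 genes had a genotype effect that differed between inputs at an adjusted p under 0.05 by edgeR, and 0 by DESeq2 or limma. At an unadjusted p under 0.05 there were 174 (1.38%) by edgeR, 239 by DESeq2 and 401 by limma. These fits treated all libraries as separate. Same-numbered libraries at 10 and 50 ng deviated together by r of 0.09 to 0.26 in WT and 0.05 to 0.56 in GFAP-IL6. With a replicate block, edgeR gave 370 at an unadjusted p under 0.05 and again 0 at an adjusted p under 0.05. Finding none does not show that the effects were equal. Over the 32 genes the smallest unadjusted p for the difference was 0.00288, for Neu3, whose 50 ng means were 1.97 CPM in GFAP-IL6 and 2.59 CPM in WT. Of the 4 lower genes, Neu3 was too low to test at 50 ng and the other 3 did not pass there. Il6 was at 4.92, 8.40, 5.07 and 0.717 CPM in GFAP-IL6 and 0.277, 0, 0 and 0.133 CPM in WT at 50 ng, again without overlap. Ttr in WT replicate 3 was again high there, at 3355 CPM against 52.7 to 111 CPM in the other WT libraries.

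**Figure D5:**
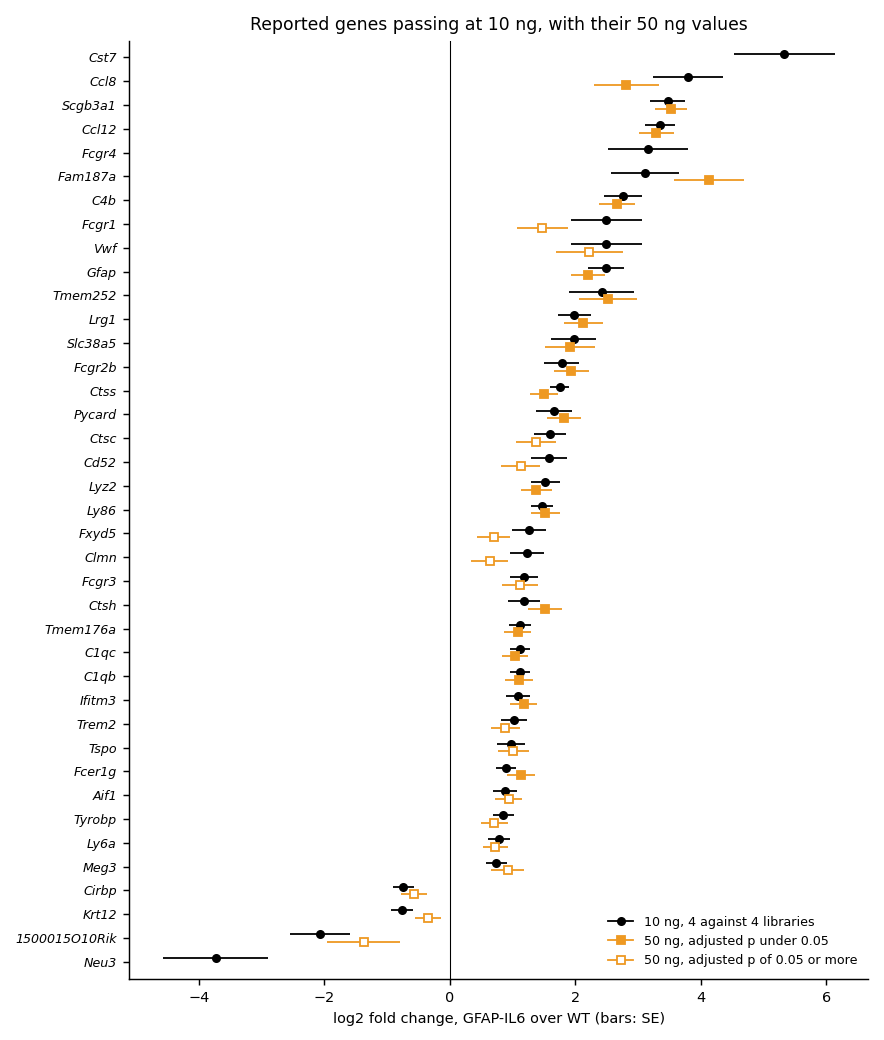
Log2 fold change (points) and its SE (bars) for the genes reported here with an adjusted p under 0.05 at 10 ng, beside the value at 50 ng (squares, filled where the adjusted p was under 0.05). Most higher genes keep a value of like size, and Cst7, Fcgr4 and Neu3 have no square because they were too low at 50 ng to be tested.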

How the data were processed

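The counts were deposited by the authors as 1 table of reads per gene, with no normalization. Per the study's methods and labels, reads were trimmed of polyA, aligned to mm10 with STAR 2.4 and counted over GENCODE vM6 genes with featureCounts. The labels' build list names a human build and was not followed. The strand setting of the counting was not given in the sources used here. Coordinates are from GENCODE vM21 of the same build. Counts were tested with edgeR 4.0.16 (quasi-likelihood, TMM, filterByExpr, Benjamini-Hochberg) in R 4.3.3, with 4 against 4 libraries. A differentially expressed gene (DEG) had an adjusted p below 0.05 and a log2 fold change beyond 1 in size. Lists were counted by adjusted p. DESeq2 1.42.0, limma 3.58.1, other scalings and filters, thinned counts, a replicate block and leaving out libraries were alternatives. The genes named were the DEGs, the list members that passed (otherwise up to 2 with the smallest p) and the 6 lower genes of smallest p; others are marked. The members, lists and tests were chosen with earlier results of these data known. CPM carry counting error as well as replicate spread. C4a was not analysed here, and results for a few genes are not reported here.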

Additional observations from a re-analysis of the deposited data

Results flagged for a closer look

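In groups of 4 libraries, a value was picked out when the highest or lowest library lay far from the other 3 for the range of the group (Dixon's test at 95%). Of 258 groups examined, 16 were picked out (6.2%), and chance alone gives about 1 in 20.

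Among the risen genes, GFAP-IL6 replicate 1 was low for C4b at 19.7 CPM (others 43.2 to 47.2), and replicate 3 was high for Cst7 at 12.3 CPM (others 6.20 to 6.58) and for Fcgr2b at 56.7 CPM (others 29.1 to 32). Among the fallen genes, Neu3 was highest in GFAP-IL6 replicate 1 at 1.72 CPM (others 0 to 0.102), and 1500015O10Rik was lowest in replicate 4 at 1.63 CPM (others 3.76 to 3.97). Lamp5, a marker of interneurons, reached 395 CPM in GFAP-IL6 replicate 3 (others 309 to 322).

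WT replicate 3 was far above the other WT libraries for Ttr (3003 against 46.8 to 91.1 CPM) and for the summed ependymal and choroid plexus markers (3083 against 75.4 to 125 CPM). WT replicate 4 was low for Slc40a1 at 4.40 CPM (others 7.40 to 7.92), and for Trbc2 at 62.0 CPM (others 94.4 to 97.2), which also set the lowest T and NK cell sum of 64.2 CPM (others 99.0 to 102).

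Of the other summed lists, monocyte and neutrophil markers were highest at 13.2 CPM in 1 GFAP-IL6 library (others 2.03 to 3.77) and excitatory neuron markers at 2677 CPM in another (others 2328 to 2380). WT replicate 4 was the highest WT library for Toll-like receptor and NF-kB genes at 230.3 CPM (others 205 to 208). WT replicate 3 was the highest for cathepsins and lysosome at 3336 CPM (others 2717 to 2749). It was also the highest for acute phase, metal and iron genes at 12630 CPM (others 9210 to 9628). The causes were not tested.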

How the results depend on the processing

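The 32 differentially expressed genes at 10 ng numbered 23 to 35 when 1 library was left out (23 without WT replicate 3) and 18 after thinning to the lowest total, all higher, from 8797 testable genes. With DESeq2, no filter and a replicate block they numbered 47, 46 and 47, and all 32 were among them each time. By adjusted p alone, 40 genes became 62 (DESeq2), 64 (no filter), 77 (replicate block) and 21 (thinned). The 2 lower genes became 4 (DESeq2), 5 (no filter), 0 (limma), 0 (thinned) and 0 to 4 with 1 library left out. Chosen after seeing the data, leaving out WT replicate 3 with GFAP-IL6 replicate 4 gave 0 lower of 28, and leaving out both replicate 2 libraries gave 1 of 25. Of the 40 genes, 20 kept their call in each alternative that tested them (4 of the 20 were too low to test after thinning), and none turned. Counts of risen list members ran over all alternatives from 5 to 11 for pan-myeloid (8 as reported), 4 to 9 for Fc receptors (7), 1 to 2 for MHC class II and vascular activation (2 each), 1 to 3 for chemokines (2) and 0 to 2 for endothelial cells (0), and 15 of 34 lists moved by over 1.5 times in at least 1. Same-numbered libraries deviated together by r of 0.04 to 0.16 at 10 ng, and all but 1 library, of replicate 2, correlated best with its own number. Mitochondrial share in replicates 1 to 4 was 15.6, 18.8, 11.6 and 17.0% in WT. In GFAP-IL6 it was 15.6, 17.6, 12.3 and 18.1%, so it went with the number. What the same number stands for was not stated, so the main fit left the numbers out. The replicate block was the alternative that used them. The Il6 difference, 4.55 CPM, stayed at 4.55 under the replicate block (exact p = 0.125) and 2.80 to 5.53 with 1 library left out (exact p = 0.0571, the smallest possible). At 50 ng, 33 genes became 80 without a filter and 11 (without WT replicate 4) to 59 (without GFAP-IL6 replicate 4) with 1 library left out. The difference between inputs gave 0 genes in each alternative. Values that did not pass and changed sign were those of Ttr (1.05 without WT replicate 3, with a range of -3.25 to 1.05 over the libraries left out, and 1.42, adjusted p = 0.0183, without GFAP-IL6 replicate 4 as well), Ighm (-0.13 to 0.47) and Pf4 (-0.17 to 0.44, with -0.15 without WT replicate 3) with 1 library left out, Hbb-bs (0.056) without that pair, and Alas2 (-0.059) without both replicate 2 libraries. The cause of these shifts was not tested. Depth limits genes with a few counts in the replicate 2 libraries.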

Other observations

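Of the 33 genes differentially expressed at 50 ng, 14 were not at 10 ng, and 13 of these were tested there. Fcer1g passed at 10 ng but under the fold limit. The other 13 include further leukocyte and microglia genes, chosen here after their values were seen. Itgam (CD11b), an integrin of myeloid cells, had a log2 fold change of 1.38 at 10 ng (adjusted p = 0.0606) and 2.26 at 50 ng (adjusted p = 0.000614). Ptprc (CD45), the phosphatase of leukocytes, had 1.75 (adjusted p = 0.103) and 2.69 (adjusted p = 0.00227), and the B cell and microglia receptor Cd72 had 2.07 (adjusted p = 0.0514) and 2.48 (adjusted p = 0.0417). In these 3 genes all 4 GFAP-IL6 libraries were above WT at 10 ng. Rab32, a GTPase of lysosome-related organelles, had 0.27 (adjusted p = 0.93) and 1.97 (adjusted p = 0.0235).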
